A study of Homo sapiens with 6 samples.

Results

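Fibronectin, tenascin C, periostin, osteopontin, the fibulins and extracellular matrix protein 1 are secreted proteins that fill the space between cells. The 9 genes described here, FN1, TNC, POSTN, SPP1, FBLN1, FBLN2, FBLN5, EFEMP1 and ECM1, were chosen by name with earlier results of these data known. Each had a row in the deposited table of 30949 genes and is among the 16756 genes that passed the filter on low counts. RNA came from wild-type astrocytes made from the human pluripotent line WTC11, which is an established cell line, and grown as floating aggregates within alginate capsules. For 48 hours, 3 cultures were given ITC (complement C1q together with the cytokines TNF alpha and interleukin 1 alpha) and 3 were given vehicle. All 6 libraries come from 1 parental line, so the spread between them is not a spread between donors. The series description speaks of separate capsule batches, each divided between the treatments.

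Fibronectin is assembled by cells into fibrils through integrins that recognise its RGD sequence, and the fibrils serve as a scaffold for other matrix proteins. Tenascin C, periostin and osteopontin are matricellular proteins, which act on cells through surface receptors more than they bear load. Fibulins are glycoproteins with calcium-binding EGF-like repeats that join elastic fibres, basement membranes and fibronectin. In adult brain fibronectin and tenascin C are sparse, and astrocytes deposit tenascin C during development and around injuries.

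Of the 9 transcripts, 6 rose with ITC (FN1, FBLN5, TNC, ECM1, FBLN1 and FBLN2), 2 fell (SPP1 and EFEMP1) and POSTN did not pass the test. Calls came from the quasi-likelihood test of edgeR at a threshold of 0.05, with p-values adjusted by Benjamini-Hochberg over all 16756 genes tested. The test called 39.4% of all tested genes, 20.4% higher and 19.0% lower in ITC, so that a single call is common in these libraries. With the replicate number as a block, 8 of the 9 members and 50.2% of all tested genes were called. A rise of at least 4-fold was seen in 4 of the 9 members and in 4.39% of all tested genes. The groups did not overlap in 8 of the 9 members and in 50.1% of all tested genes. The median log2 fold change was 0.70 over the 9 members and -0.01 over all tested genes. Because the members were chosen with earlier results of these data known, these shares and medians describe the 9 genes and do not test them as a set. Fold changes below are log2 of ITC over vehicle with their SE. CPM is the count brought to a common library size with TMM scaling and compares 1 gene between libraries, and FPKM, as the authors deposited it, divides by gene length and compares genes.

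Total counts ranged from 17808993 to 19327421 in ITC libraries and from 17398921 to 29941685 in vehicle libraries. Mitochondrial genes took 2.64% to 3.43% of counts in ITC and 3.65% to 5.03% in vehicle, without overlap, and vehicle replicate 3 was the highest of the 6 in depth, in mitochondrial share and in genes with a count (26577). Of the 8 astrocyte markers 6 fell, 1 rose and 1 did not pass. Their median was -0.86 and their summed FPKM was 427 to 553 in ITC and 535 to 579 in vehicle. AQP4 (-3.07 ± 0.18), ALDH1L1 (-1.45 ± 0.28), SLC1A2 (-1.18 ± 0.18), S100B (-1.04 ± 0.16), GJA1 (-0.69 ± 0.16) and SLC1A3 (-0.59 ± 0.16) fell, SOX9 rose (0.85 ± 0.21) and GFAP was not called (-0.19 ± 0.19). All 8 were present in every library.

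Fibroblast and mural cell markers, which mark cells known to make several of these matrix proteins, had summed FPKM of 139 to 189.6 in ITC and 128 to 147 in vehicle. Of these 9 genes, 3 fell, namely PDGFRB (-3.58 ± 0.33), LUM (-2.19 ± 0.48) and COL3A1 (-1.78 ± 0.19). TAGLN (0.75 ± 0.17) and RGS5 (2.24 ± 0.22) rose. COL1A1 (0.17 ± 0.16, or -0.07 with library size scaling alone), COL1A2 (-0.19 ± 0.17) and ACTA2 (0.02 ± 0.18) were not called. DCN, the other gene called higher, had 23, 27 and 18 counts in ITC and 1, 11 and 2 counts in vehicle, a level that ITC alone carried past the filter.

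Endothelial markers summed to 1.06 to 1.26 FPKM in ITC and 0.285 to 0.371 FPKM in vehicle, all 6 of them under 1 FPKM in every library, with KDR at 34, 36 and 83 counts in ITC and 10, 11 and 45 in vehicle, TEK at 37, 59 and 27 in ITC and 5, 6 and 13 in vehicle, and VWF at 4, 6 and 11 in ITC and 19, 7 and 1 in vehicle. Neuron markers summed to 549.7 to 685 FPKM in ITC and 254 to 273 FPKM in vehicle, mostly GAP43, which rose (1.79 ± 0.16), while 4 of the 7 tested fell, among them MAP2 (-1.56 ± 0.17) and DCX (-2.21 ± 0.26). Among markers of progenitors and dividing cells 6 of 7 fell, including MKI67 (-6.37 ± 0.31), TOP2A (-5.79 ± 0.24), NES (-0.59 ± 0.19) and SOX2 (-0.50 ± 0.16), and VIM rose (0.51 ± 0.17). Of the 6, HES5 had 2, 3 and 5 counts in ITC and passed the filter on low counts through vehicle alone. The calls of NES, SOX2 and VIM were each lost in leave-one-out fits, with adjusted p up to 0.105, 0.0856 and 0.133. The part of these markers' cells in the member results was not tested. In bulk RNA a change in the number of cells of a type and a change in RNA per cell cannot be told apart.

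Ordered by level per length, TNC stood first in both groups and the rest of the order differed. In ITC, mean FPKM fell in the order TNC (475 ± 120), FN1 (245 ± 72.2), FBLN5 (58.3 ± 12.5), FBLN1 (38.8 ± 8.74), POSTN (21.4 ± 11.2), FBLN2 (7.31 ± 1.33), ECM1 (5.27 ± 0.889), EFEMP1 (2.57 ± 0.849) and SPP1 (1.57 ± 0.435). In vehicle, the order was TNC (82.5 ± 27.9), FBLN1 (23.6 ± 4.70), POSTN (22.4 ± 17.7), FN1 (10.1 ± 0.649), FBLN5 (7.82 ± 1.20), SPP1 (6.05 ± 2.39), FBLN2 (4.53 ± 0.430), EFEMP1 (4.13 ± 0.522) and ECM1 (1.18 ± 0.212; SD, n = 3 per group throughout). Neighbours overlapped in ITC for FBLN1 with POSTN and for EFEMP1 with SPP1. In vehicle they overlapped for FBLN1 with POSTN, FBLN5 with SPP1, SPP1 with FBLN2 and FBLN2 with EFEMP1. Among 14040 tested protein-coding genes, FN1 ranked 91 by mean FPKM in ITC and 4244 in vehicle, and TNC ranked 43 in ITC and 362 in vehicle. Together the 9 genes took 1.02%, 0.818% and 0.716% of all counts in ITC replicates 1, 2 and 3, against 0.167%, 0.131% and 0.132% in vehicle. The listed gene lengths equal the union of all annotated exons in GENCODE 29 for all 9 genes and are 1.10 to 2.52 times the longest annotated transcript, most for FBLN1, so that FPKM understates a level by an amount that differs between genes.

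**Figure D1:**
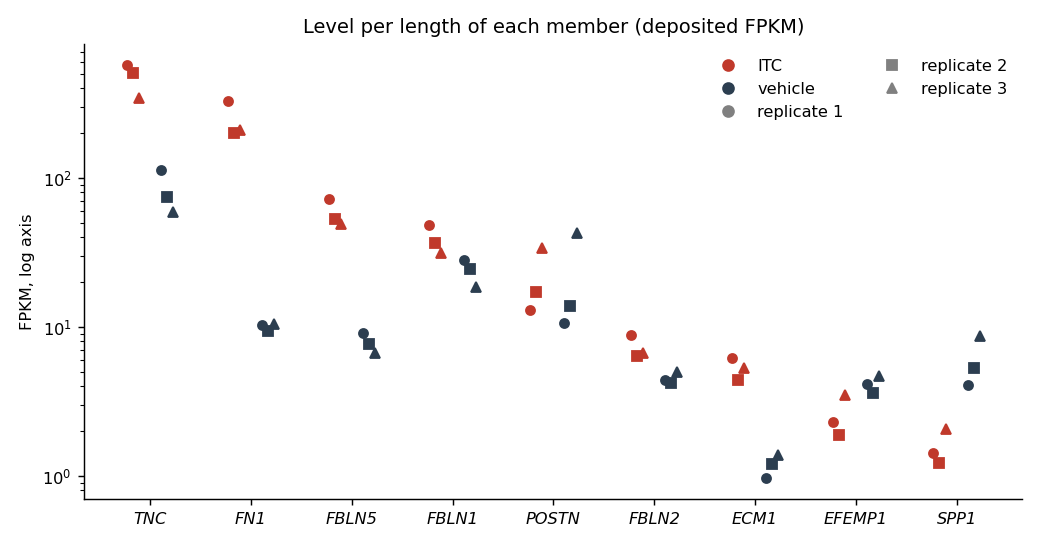
Deposited FPKM (log axis) of each of the 9 transcripts in every library, ITC in red on the left and vehicle in dark blue on the right of each pair, with symbols for replicates; genes are ordered by their mean in ITC. TNC is the highest in both groups, and FN1 averages 245 FPKM in ITC, next after TNC, and 10.1 FPKM in vehicle, near FBLN5 (7.82 FPKM).

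The windows below are the 250 bases before the RefSeq start (GRCh38.p14) of the 4 members that rose by at least 4-fold and of SPP1, the member with the larger fall, shown so that their letters can be read beside the fold changes; 8 of the 9 members matched an entry of the RefSeq table. Capitals mark matches, on either strand, to the AP-1 motif TGANTCA, the cyclic AMP response element TGACGTCA, the STAT motif TTCNNNGAA, the TATA motif TATAA and the NF-kappa-B consensus. The windows are FN1 at chr2:215436069-215436318 on the minus strand, TNC at chr9:115118158-115118407 (minus), FBLN5 at chr14:91947695-91947944 (minus), ECM1 at chr1:150507859-150508108 (plus) and SPP1 at chr4:87975464-87975713 (plus), each written 5′ to 3′ along the gene.
FN1: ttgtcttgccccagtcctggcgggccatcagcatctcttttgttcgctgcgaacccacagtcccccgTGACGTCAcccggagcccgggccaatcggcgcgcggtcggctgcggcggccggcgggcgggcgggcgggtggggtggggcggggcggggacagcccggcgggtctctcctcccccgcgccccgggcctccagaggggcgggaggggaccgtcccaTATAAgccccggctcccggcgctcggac
TNC: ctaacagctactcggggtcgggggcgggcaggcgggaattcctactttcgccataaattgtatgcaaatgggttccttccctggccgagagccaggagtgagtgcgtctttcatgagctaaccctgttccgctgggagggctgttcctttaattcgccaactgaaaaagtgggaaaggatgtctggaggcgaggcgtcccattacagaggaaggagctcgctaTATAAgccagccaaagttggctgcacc
FBLN5: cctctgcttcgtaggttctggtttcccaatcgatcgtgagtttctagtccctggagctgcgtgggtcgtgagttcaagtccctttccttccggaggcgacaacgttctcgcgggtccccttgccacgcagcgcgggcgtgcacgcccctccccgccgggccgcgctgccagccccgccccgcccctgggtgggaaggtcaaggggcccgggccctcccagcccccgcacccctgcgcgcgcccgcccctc
ECM1: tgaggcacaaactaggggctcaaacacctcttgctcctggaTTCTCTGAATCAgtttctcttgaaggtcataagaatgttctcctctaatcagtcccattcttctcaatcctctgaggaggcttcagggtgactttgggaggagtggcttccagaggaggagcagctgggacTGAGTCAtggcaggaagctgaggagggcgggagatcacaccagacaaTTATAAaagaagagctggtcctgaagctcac
SPP1: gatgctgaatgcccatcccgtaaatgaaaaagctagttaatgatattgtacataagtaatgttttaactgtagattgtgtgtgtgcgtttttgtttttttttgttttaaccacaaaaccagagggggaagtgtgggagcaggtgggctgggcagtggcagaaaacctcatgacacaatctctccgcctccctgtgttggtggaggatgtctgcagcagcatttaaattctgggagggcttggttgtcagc
The FN1 window held 1 cyclic AMP response element, at bases -183 to -176 counted from the start, a match found in 1.65% of 35116 promoter windows of the same length, and 6 GC boxes (GGGCGG, not capitalised), a motif held by 42.6% of windows. A TATA match lay at -28 to -24 in FN1, at -27 to -23 in TNC and at -30 to -26 in ECM1, against 18.9% of windows with any such match. ECM1 had AP-1 matches at -204 to -198 and at -78 to -72 (6.57% of windows hold one), the first of them overlapping its STAT match at -209 to -201 (6.57% of windows), and its TATA match overlaps another on the opposite strand. FBLN5, which has 2 entries in the table, is shown by 1 of them and held no capitalised match, nor did SPP1. None of these 5 windows held an exact match to the NF-kappa-B consensus, which 9.96% of windows hold. Among the 8 members with an entry FBLN1 alone had 1 match, at -112 to -103. Near matches were not counted: gggaattcct in the TNC window ends in t where the consensus ends in c. The motifs were chosen after the values were seen. A match is a string of letters and was not tested as a binding site, and its absence covers this window only.

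FN1, fibronectin (chromosome 2, 215360440 to 215436172, minus strand, GRCh38), showed the largest change among the members. It had 5417, 3355 and 3550 CPM in ITC replicates 1, 2 and 3, against 172, 158 and 182 CPM in vehicle replicates 1, 2 and 3. The lowest ITC library was thus far above the highest vehicle library, and ITC replicate 1 stood above the other ITC libraries while the vehicle libraries lay close together. Counts were 60149 to 89248 per library in ITC and 3009 to 5889 in vehicle, so counting error was small. The log2 fold change was 4.59 ± 0.22, or 24.1-fold (edgeR adjusted p = 9.57e-10), and 1.04% of tested protein-coding genes had a larger rise. The coefficient of variation between libraries was 27.7% in ITC and 7.23% in vehicle.

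TNC, tenascin C (chromosome 9, 115019578 to 115118257, minus strand), was already abundant without the cytokines. Its CPM was 5277, 4760 and 3255 in ITC, against 1047, 705 and 572 in vehicle (replicates 1, 2 and 3). All ITC libraries were above all vehicle libraries, and replicate 1 was the highest and replicate 3 the lowest in each group. TNC rose by 2.52 ± 0.24, or 5.72-fold (edgeR adjusted p = 1.08e-06). The FPKM of TNC was 1.75, 2.55 and 1.65 times that of FN1 in ITC, against 11.0, 8.03 and 5.64 times in vehicle. The pair was set side by side after its values were seen, and this ratio was given no test. Of TNC exon bases, 1.34% lie in exons of another gene, DEC1, on the opposite strand, and for the other 8 members this share was 0%.

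Among the 4 fibulins FBLN1, FBLN2, FBLN5 and EFEMP1, which differ in how they bind elastin and fibronectin, FBLN5 had the largest fold change. FBLN5, known from mice as needed for elastic fibre assembly and itself a ligand of integrins (chromosome 14, 91869412 to 91947987, minus strand), had 344, 257 and 242 CPM in ITC, against 43.3, 37.4 and 33.3 CPM in vehicle. Every ITC library was above every vehicle library, with replicate 1 highest in each group. The change was 2.89 ± 0.19, or 7.4-fold (edgeR adjusted p = 1.90e-08).

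FBLN1, a fibulin that binds fibronectin (chromosome 22, 45502238 to 45601135, plus strand), had 337, 257 and 227 CPM in ITC, against 195, 174 and 136 CPM in vehicle. The groups did not overlap, although the lowest ITC library and the highest vehicle library differed by less than the spread within ITC. FBLN1 rose by 0.70 ± 0.19, or 1.63-fold (edgeR adjusted p = 0.00877). FBLN2, a larger fibulin of basement membranes and elastic fibres (chromosome 3, 13549131 to 13638422, plus strand), had 40.5, 29.99 and 31.8 CPM in ITC, against 20.3, 19.7 and 24.1 CPM in vehicle. Again no libraries of the groups overlapped, with ITC replicate 1 above the rest. FBLN2 rose by 0.67 ± 0.17, or 1.59-fold (edgeR adjusted p = 0.00607), and with vehicle replicate 2 left out the call was lost (0.58 ± 0.22, adjusted p = 0.0521).

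EFEMP1, a short fibulin of retina, cartilage and other tissues (chromosome 2, 55865967 to 55924139, minus strand), went the other way at a low level. It had 8.68, 7.27 and 13.8 CPM in ITC, against 15.6, 13.99 and 18.5 CPM in vehicle. ITC replicate 3 lay just under the lowest vehicle library, and replicate 3 was the highest in each group. EFEMP1 fell by 0.70 ± 0.23 on the log2 scale (edgeR adjusted p = 0.0267). The call was lost without ITC replicate 1 (-0.60 ± 0.26, adjusted p = 0.112) and without ITC replicate 2 (-0.51 ± 0.25, adjusted p = 0.142).

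Ratios of fibulins within a library do not depend on the scaling between libraries. The log2 ratio of FBLN1 to FBLN5 was -0.58, -0.55 and -0.65 in ITC replicates 1, 2 and 3, against 1.62, 1.67 and 1.48 in vehicle. FBLN5 was thus the more abundant per length in every ITC library and FBLN1 in every vehicle library. The log2 ratio of FBLN1 to FBLN2 was 2.46, 2.50 and 2.24 in ITC, against 2.66, 2.55 and 1.89 in vehicle, and these values overlapped. Its mean was 0.03 higher in ITC (exact two-sided permutation p = 1 over 3 against 3 libraries), a difference within the spread of the libraries (SD 0.14 in ITC and 0.41 in vehicle). For FBLN5 over EFEMP1 the log2 ratio was 4.98, 4.82 and 3.81 in ITC, against 1.14, 1.09 and 0.52 in vehicle. In 5 of the 6 pairs the groups did not overlap, with mean differences of ITC minus vehicle of -2.18 for FBLN1 over FBLN5, -2.21 for FBLN2 over FBLN5, 1.44 for FBLN1 over EFEMP1, 1.41 for FBLN2 over EFEMP1 and 3.62 for FBLN5 over EFEMP1. Each of these 5 had an exact permutation p of 0.1, the smallest that 3 against 3 allows, and 0.12 after adjustment over the 6 pairs, so none could pass 0.05 in this design.

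**Figure D2:**
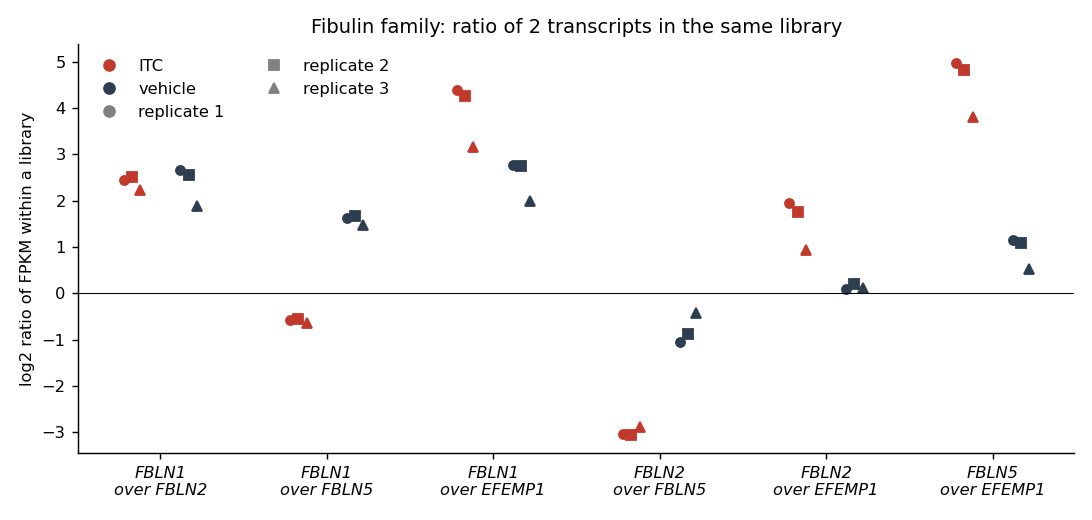
Log2 ratio of the FPKM of 2 fibulin family transcripts within each library, for the 6 pairs of FBLN1, FBLN2, FBLN5 and EFEMP1, ITC in red on the left and vehicle in dark blue on the right of each pair, with symbols for replicates. The FBLN1 over FBLN5 ratio lies below 0 in all 3 ITC libraries and above 0 in all 3 vehicle libraries, while FBLN1 over FBLN2 overlaps between the groups.

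ECM1, a secreted glycoprotein of skin and other matrices whose loss causes lipoid proteinosis in people (chromosome 1, 150508062 to 150513789, plus strand), was the least abundant member per length in vehicle. Its CPM was 19.7, 14.3 and 17.5 in ITC, against 3.11, 3.93 and 4.67 in vehicle. All ITC libraries lay above all vehicle libraries, and the replicates were not in the same order in the groups. ECM1 rose by 2.13 ± 0.22, or 4.37-fold (edgeR adjusted p = 2.27e-06), with 258 to 325 counts per ITC library and 67 to 151 per vehicle library.

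SPP1, osteopontin, an RGD-bearing phosphoprotein that in brain is known mainly from microglia and injured tissue (chromosome 4, 87975650 to 87983426, plus strand), fell. It had 3.16, 2.78 and 4.72 CPM in ITC, against 9.09, 12.1 and 20.2 CPM in vehicle. No ITC library reached the lowest vehicle library, and replicate 3 was the highest in each group. The log2 fold change was -1.97 ± 0.30 (edgeR adjusted p = 0.00012), with 50 to 80 counts per ITC library and 196 to 654 per vehicle library. Without vehicle replicate 3 it was -1.62 ± 0.26 and still called (adjusted p = 4e-05). Of 11 microglia and macrophage markers, 7 had a row. Their summed FPKM was 0.335 to 0.572 in ITC and 0.157 to 0.380 in vehicle, each of the 7 was under 1 FPKM in every library, and AIF1 and C1QA had a count of 0 in all ITC libraries. For CD68, 1 of the 7, 85.8% of exon bases lie in exons of other annotated genes, so its low counts are uncertain. The most abundant of the 7 were ITGAM, with 26, 21 and 28 counts in ITC and 0, 4 and 7 in vehicle, CSF1R, with 18, 8 and 16 in ITC and 4, 4 and 8 in vehicle, and CX3CR1, with 0, 0 and 3 in ITC and 9, 4 and 2 in vehicle. The part of such cells in the fall of SPP1 was not tested.

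POSTN, periostin, a matrix protein of periosteum and healing tissue (chromosome 13, 37562583 to 37598844, minus strand), varied more between replicates than between treatments. It had 67.4, 90.9 and 183 CPM in ITC, against 55.5, 73.9 and 234 CPM in vehicle. Replicate 3 was the highest in both groups, at 2.32 times the mean of the other two in ITC and 3.61 times in vehicle, and the groups overlapped throughout. The coefficient of variation was 53.8% in ITC and 80.9% in vehicle, above that of the other members in either group. Vehicle replicate 3 is also the library with the largest depth and mitochondrial share, whose part in these values was not tested. The log2 fold change was -0.09 ± 0.44 (edgeR adjusted p = 0.889). Without vehicle replicate 3 it was 0.77 ± 0.28 and called (adjusted p = 0.0364), in a fit that keeps the high ITC replicate 3. Without vehicle replicates 1 or 2, or ITC replicate 3, the sign was negative, down to -0.60. With the replicate number as a block in edgeR it was 0.07 ± 0.13 and not called (adjusted p = 0.689). SPP1 and EFEMP1 shared the high replicate 3 in both groups, at 1.59 and 1.72 times the mean of the other two in ITC and at 1.91 and 1.247 times in vehicle.

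**Figure D3:**
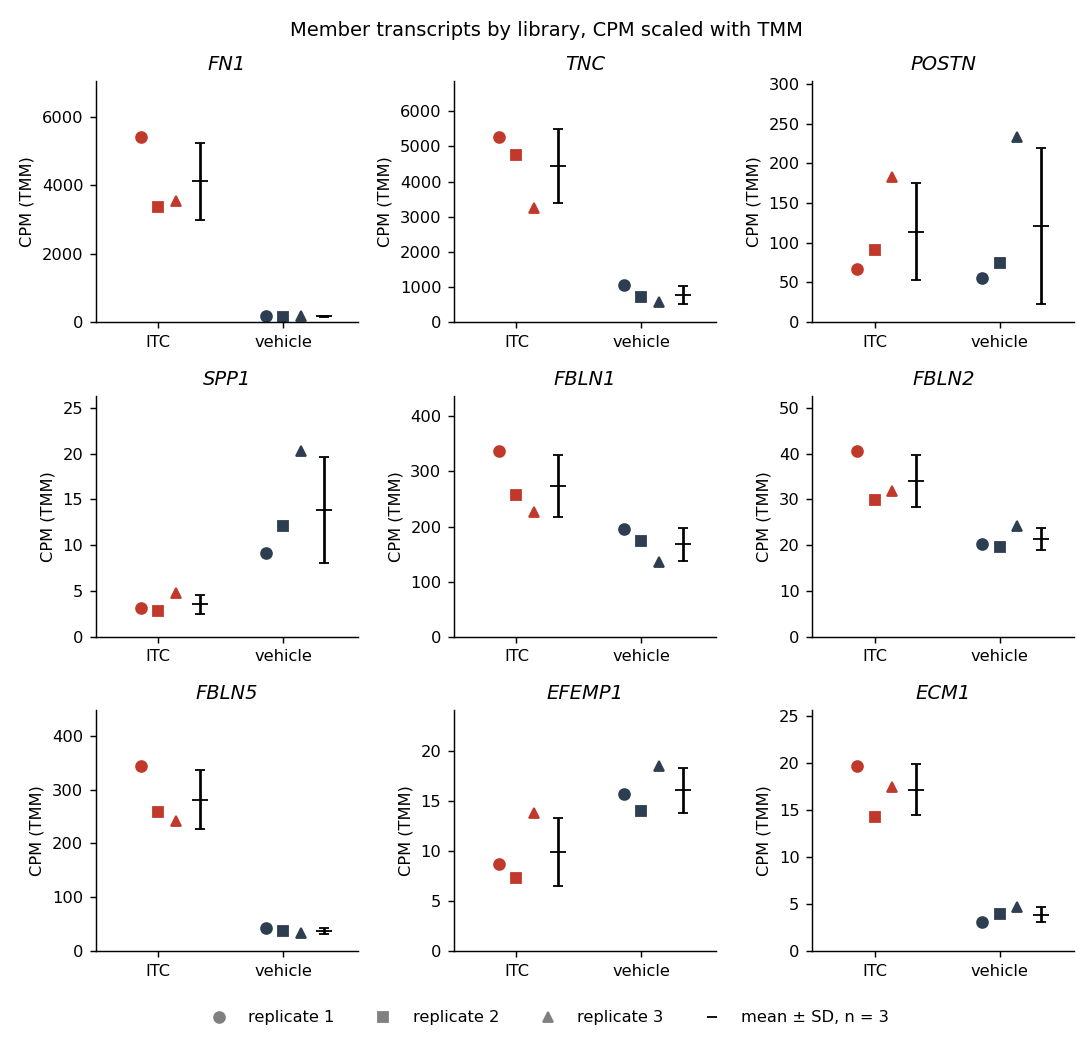
TMM-scaled CPM of each of the 9 transcripts in every library, ITC in red on the left and vehicle in dark blue on the right, with symbols for replicates and a bar for the mean ± SD (n = 3 per group); each panel starts at 0. ITC and vehicle libraries are apart for 8 genes and mixed for POSTN, whose replicate 3 is the highest in both groups (183 CPM in ITC and 234 CPM in vehicle).

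The directions of the 8 called members held in each of the 16 alternatives run for them, which changed the scaling, the filter, the test, the unit, the pairing or the libraries. Across these the log2 fold change ranged from 4.35 to 4.73 for FN1, from 2.65 to 3.0 for FBLN5, from 2.28 to 2.78 for TNC, from 1.52 to 2.26 for ECM1 and from -2.21 to -1.41 for SPP1. For FBLN1 it ranged from 0.47 to 0.84. Scaling by library size alone shifted the median of all genes to -0.24, and upper quartile scaling to -0.16. With these scalings 2282 genes were called higher and 4804 lower, and 2662 higher and 4059 lower, against 3423 higher and 3176 lower with TMM.

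**Figure D4:**
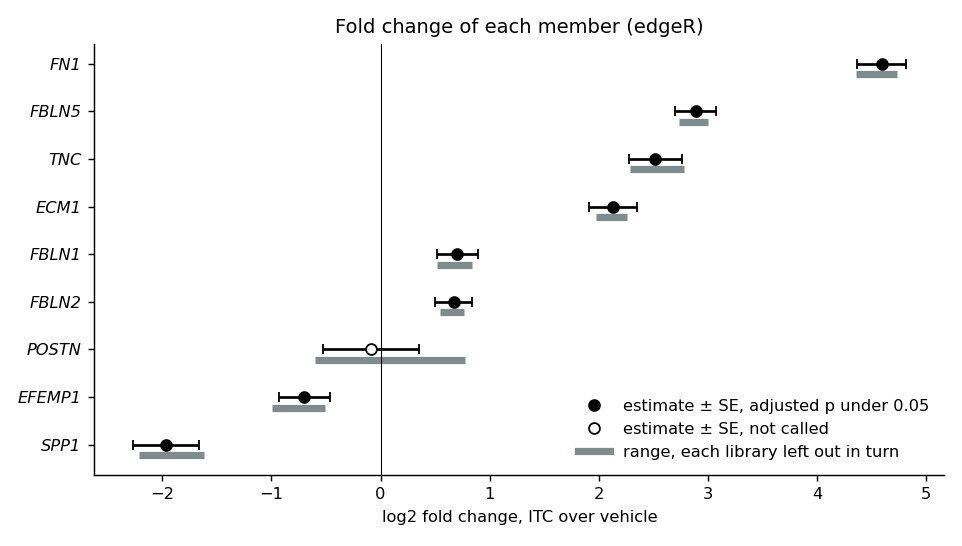
Log2 fold change of ITC over vehicle for each transcript (points, with SE bars; filled where the edgeR adjusted p is under 0.05), and the range of the estimate when each of the 6 libraries is left out in turn (grey bars). FN1, at 4.59, stands above the rest, and the range of POSTN runs from -0.60 to 0.77 across 0.

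Companion genes of the same matrix were taken by name as 4 lists, also with earlier results of these data known. Their counts stand beside 39.4% of all tested genes called, 20.4% higher and 19.0% lower in ITC, and a median log2 fold change of -0.01. Among 15 tested of 16 other fibulins, fibrillins and elastic fibre genes, 6 rose, 4 fell and 5 did not pass. Their median log2 fold change was 0.20. The elastic fibre glycoprotein EMILIN2 rose by 4.80 ± 0.23 to 127 ± 25.0 CPM in ITC, against 4.59 ± 1.25 CPM in vehicle (SD, n = 3 each). Hemicentin 1, HMCN1, a very large fibulin family member, rose by 2.96 ± 0.24. Elastin itself, ELN, rose by 1.22 ± 0.15, and the fibrillins FBN1 and FBN2, which form the microfibril scaffold, by 1.18 ± 0.17 and 1.05 ± 0.15. FBLN7, a fibulin at a low level, fell by 2.83 ± 0.46, the microfibril-associated MFAP4 fell by 1.63 ± 0.19 and the latent TGF-beta binding protein LTBP2 fell by 1.46 ± 0.16. FBLN7 had 6, 6 and 4 counts in ITC and passed the filter on low counts through vehicle alone. Its place among the 4 that fell is thus partly set by the filter. EFEMP2, the close relative of EFEMP1, was not called (0.20 ± 0.18, or -0.04 with library size scaling alone) at 174 ± 33.2 CPM in ITC and 152 ± 27.5 CPM in vehicle, and LTBP3 was not called (-0.01 ± 0.16).

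Among 15 tested of 18 other tenascins and matricellular genes, 5 rose, 2 fell and 8 did not pass. The 7 called of 15 are near the share of 39.4% called among all tested genes, and the median was 0.38. TNN, tenascin N, rose by 5.70 ± 0.31, to 22.6 ± 3.18 CPM in ITC, against 0.403 ± 0.222 CPM in vehicle, while the other tenascins TNXB (0.50 ± 0.20) and TNR (0.36 ± 0.42), named after their values were seen, were not called. TNN had 10, 3 and 19 counts in vehicle replicates 1, 2 and 3, and its log2 fold change ranged from 2.38 to 6.07 across the alternatives. It passed the filter on low counts through ITC alone, so its place among the 5 that rose and in the median is partly set by the filter. Counts of TNXB are uncertain because it has a near-identical partial copy, TNXA. The CCN proteins are a matricellular family listed in the table under older symbols. Of these NOV rose by 3.67 ± 0.19, CYR61 by 1.5 ± 0.15, and CTGF was not called (0.31 ± 0.15). The calcium-binding SMOC1 fell by 4.19 ± 0.26 and SPARCL1, or hevin, an astrocyte protein that promotes synapses, fell by 2.23 ± 0.19. SPARC, the most abundant gene of the list, was at 3809.8 ± 271 CPM in ITC and 4444 ± 295 CPM in vehicle and was not called (-0.22 ± 0.15), and THBS1 was not called either (0.18 ± 0.16, or -0.04 with library size scaling alone).

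Of 15 tested of 16 receptors of fibronectin, tenascin and osteopontin, 10 rose, 2 fell and 3 did not pass, and the median was 1.28. Among those that rose, PTPRB, named after its values were seen, had 43, 61 and 57 counts in ITC and 16, 8 and 3 in vehicle. PTPRB passed the filter on low counts through ITC alone, so the number that rose and the median are partly set by the filter. ITGA5, the alpha chain of the main fibronectin receptor, rose by 3.59 ± 0.21, to 348 ± 92.5 CPM in ITC, against 28.9 ± 2.85 CPM in vehicle. ITGAV, the alpha chain of integrins that bind RGD in fibronectin and osteopontin, rose by 2.29 ± 0.18, ITGA8 by 3.63 ± 0.25 and ITGB8 by 1.38 ± 0.17. ITGB1, the shared beta chain, was called at 0.46 ± 0.17 (edgeR adjusted p = 0.0451) but lost its call in 10 of 16 alternatives, among them those without ITC replicates 2 or 3 or vehicle replicates 1 or 2 (adjusted p 0.111 to 0.245). ITGA4 fell by 0.99 ± 0.25 to under 5 CPM, SDC2, a syndecan, fell by 0.84 ± 0.16, and the tenascin-binding phosphatase PTPRZ1 was not called (-0.12 ± 0.16).

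All 14 tested of 15 proteases known to cut fibronectin, tenascin or osteopontin were called, 11 higher and 3 lower, with a median of 1.69. MMP1, MMP3, MMP9, MMP10 and CTSS passed the filter on low counts through ITC alone, and FAP through vehicle alone. Such genes are tested because they are high in ITC or in vehicle, so the number called and the median are partly set by the filter. MMP9 had 7, 4 and 0 counts in vehicle and MMP10 had 7, 4 and 3. MMP7, matrilysin, rose by 6.33 ± 0.50, to 2088 ± 497 CPM in ITC, against 25.7 ± 20.2 CPM in vehicle. Cathepsin S, CTSS, rose by 8.63 ± 0.27, stromelysin MMP3 by 9.42 ± 0.41, collagenase MMP1 by 6.24 ± 0.28 and gelatinase MMP2 by 1.66 ± 0.17. Among the companions named here, exon bases shared with other annotated genes reached 18.4% in MMP9, 9.11% in FAP and 8.97% in PTPRB. The share was 8.34% in CTGF, 7.89% in SPARC, 7.61% in MMP1 and 7.58% in THBS1. Among the named markers it reached 85.8% in CD68, 30.1% in ACTA2, 24.4% in VIM, 18.4% in GFAP and 11.4% in TAGLN. Reads on shared bases may belong to either gene. In vehicle replicates 1, 2 and 3, MMP3 had 0, 1 and 11 counts, CTSS had 2, 6 and 9 and MMP1 had 8, 13 and 10. The folds of these genes are thus less certain than their SE shows. Across the alternatives the log2 fold change ranged from 5.76 to 11.8 for MMP3, from 4.50 to 8.81 for CTSS and from 3.88 to 6.57 for MMP1. The abundant MMP14 and CTSB were called (0.60 ± 0.19 and 0.49 ± 0.17) and lost their calls in 8 and 7 of 16 alternatives. Both lost them without ITC replicates 1 or 2 or vehicle replicates 2 or 3 (adjusted p 0.0508 to 0.109 for MMP14 and 0.0633 to 0.152 for CTSB). HTRA1, a serine protease that cuts fibronectin, fell by 0.86 ± 0.15, and MMP11 fell by 0.72 ± 0.24, a call lost without ITC replicates 1 or 3 or vehicle replicates 1 or 2 (adjusted p 0.0649 to 0.0979). FAP had 0, 0 and 6 counts in ITC, against 12, 22 and 53 in vehicle. It fell by 3.21 ± 0.87, or by 7.6 without ITC replicate 3, which leaves ITC at 0, and its call was lost without ITC replicate 1 (-2.65 ± 0.96, adjusted p = 0.0609).

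**Figure D5:**
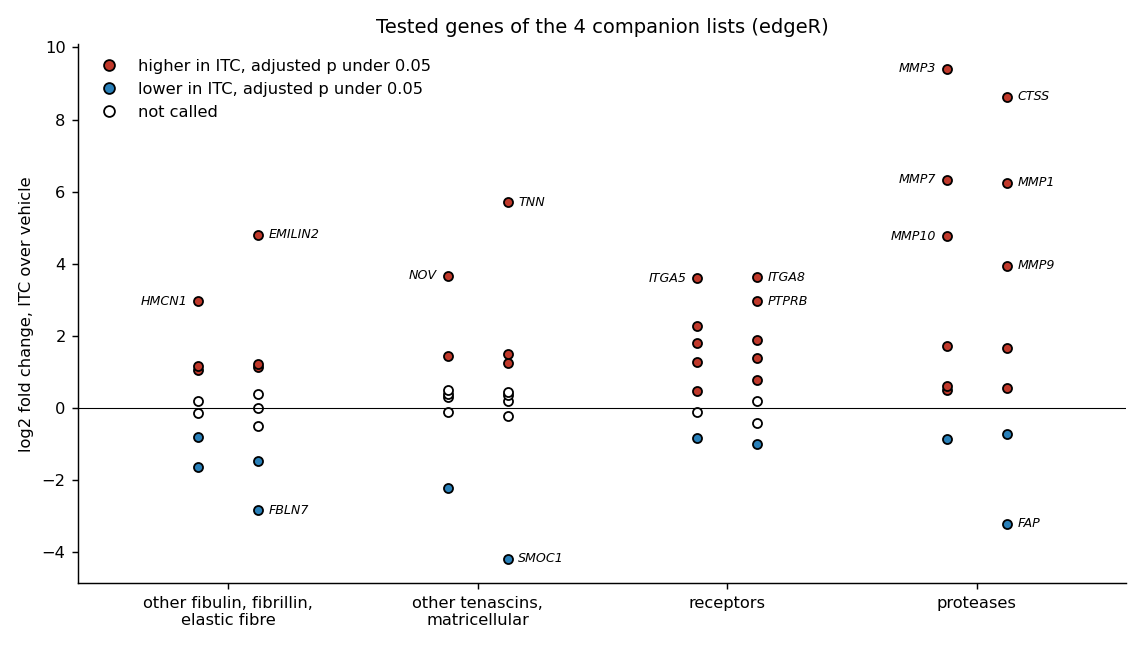
Log2 fold change of ITC over vehicle of each tested gene in the 4 companion lists (points; red higher and blue lower at an edgeR adjusted p under 0.05, white not called; genes beyond 2.8 in size are named). Of 14 proteases 11 lie above 0 and all are called, whereas 5 of 15 elastic fibre genes and 8 of 15 matricellular genes are not called. Several proteases, and TNN, PTPRB and FBLN7 in the other lists, passed the filter on low counts through ITC or vehicle alone. Of all tested genes 39.4% are called.

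The genes with the most similar profiles were found for the 3 members with the highest mean CPM by the root mean square difference of log2 CPM over the 6 libraries, each profile centred on its own mean, among 14039 other protein-coding genes. Nearest to FN1 were ZC3H12A (0.13), RRAD (0.14) and RELB (0.17). For TNC they were TP53INP2 (0.10), TAPBP (0.11) and NOCT (0.15), and for FBLN1 they were MAN2B1, NCDN and SYMPK (0.03 each). With 2 treatments and 6 libraries, likeness mostly means a similar fold change, and ZC3H12A rose by 4.65 ± 0.23 beside 4.59 ± 0.22 for FN1.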

How the data were processed

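The authors deposited whole-number counts per gene in 6 libraries, with FPKM, size-factor normalized signal, log2 fold changes of vehicle over ITC and p-values beside them, per the file headers. The submitters' processing notes name GRCh38 and DESeq2. Which aligner and counter were used, and whether counting was stranded, is not given in the sources used here. Signal, fold changes and p-values of the authors were not used for results. There were 0 columns of unmapped samples and 0 rows without a gene. Counts were tested across the whole table with edgeR 4.0.16 in R 4.3.3 (filterByExpr, TMM with factors of 0.8857 to 0.9528 for ITC and 1.069 to 1.099 for vehicle, quasi-likelihood test, no covariates), and the SE is the size of the log2 fold change divided by the square root of F. Alternatives used DESeq2 1.42.0 and limma 3.58.1. Replicate numbers come from the sample titles and p-values measure the spread between these samples, which may be partly technical. Exact permutation tests used scipy 1.17.1 and figures matplotlib 3.10.9. The edgeR fit was also run on simulated counts with few genes changed, equally up and down. That run does not test the scaling of these libraries. Members and lists were chosen with earlier results of these data known. Named companion genes are, per list, the 4 with the highest mean CPM and up to 3 with the smallest p in each direction among those called. Named markers are the 3 with the highest mean CPM per list, and the further ones were named after their values were seen. The oligodendrocyte lineage list is not reported here. Total counts were 17398921 to 29941685 per library.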

Additional observations from a re-analysis of the deposited data

How the results depend on the processing

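The counts of called genes kept within 1.5 times under every alternative, from 4474 (adjusted p under 0.01) to 8416 (replicate block) over all genes and from 7 to 9 of the 9 members. Replicate numbers were not taken to pair the samples in the main fit, because the series description does not say that they mark the capsule batches. Deviations from the group means correlated at 0.27, 0.01 and 0.38 for numbers 1, 2 and 3. Libraries numbered 1 and 3 correlated best with their own number. ITC replicate 2 was near 0 with vehicle replicates 1, 2 and 3 (0.04, 0.01 and -0.04). These values do not settle whether the numbers mark pairs. With the replicate block the same 8 members were called, FN1 at 4.56 ± 0.14, TNC at 2.53 ± 0.11 and EFEMP1 at -0.73 ± 0.17, and CTGF gained a call (adjusted p = 0.024).

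POSTN changed sign with limma on log2(FPKM + 0.1) and log2(FPKM + 1) (0.0867 and 0.0770), with limma-voom (0.0862) and with the replicate block (0.0700), and ranged from -0.60 to 0.77 when libraries were left out. The FBLN1 over FBLN2 difference ranged from -0.21 to 0.18. Library size alone turned EFEMP2 to -0.0356, THBS1 to -0.0441 and COL1A1 to -0.0667, and called SPARC (-0.45, adjusted p = 0.0232). LTBP3 and PTPRZ1, close to 0, changed sign when libraries were left out (-0.115 to 0.0770 for LTBP3 and -0.201 to 0.000161 for PTPRZ1). The cause was not tested. In the main fit the SE was 0.22 for ECM1 at 67 to 325 counts per library and 0.24 for TNC at 13446 to 86956. With the replicate block it was 0.20 for ECM1 and 0.11 for TNC. The alternatives for companion and marker genes were added after seeing the data.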
